A study of Mus musculus with 24 samples.

Results

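The mouse genome annotation gives many long non-coding RNA (lncRNA) genes no functional name. They carry a predicted-gene number (Gm), a RIKEN clone name ending in Rik, or the name of a coding gene on the other strand followed by os. Genes with such symbols were taken from the lncRNA table of a study of mouse medial frontal cortex, summing the expected counts of all assembled transcripts that reached 0.1 FPKM (fragments scaled to transcript length and library total) in at least 3 of 12 libraries. This gave 3523 genes from 6850 transcripts, out of 8749 features of that table that passed the same minimum. Of the members 2565 were Gm genes, 810 were Rik genes and 148 had a symbol ending in os or in os and a number. The last are called antisense genes here by symbol alone. A further 4257 genes with such symbols had no transcript past the minimum, and 52 members passed through control libraries only and 27 through Dnmt3l libraries only.

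The tissue came from C57BL/6J mice at postnatal day 28. Controls carried Emx1-cre, a transgene that recombines in the dorsal forebrain lineage of excitatory neurons and of cortical glia. The other genotype was the offspring of Emx1-cre mice and a conditional knock-in line for Dnmt3l, a catalytically inactive partner of the DNA methyltransferases, labelled Dnmt3l;Emx1-cre, so both genotypes carried the Cre transgene and Cre-negative knock-in mice form no group here. Each genotype had 3 male and 3 female libraries, written CM, CF (controls), DM and DF (Dnmt3l) with the replicate number. The labels do not say whether the samples are separate animals, and a p-value here reflects sample-to-sample spread, part of which may be technical.

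Long non-coding RNAs act in several ways. Some regulate a neighbouring gene on the same chromosome, through their transcription or as RNA, some bind microRNAs or proteins elsewhere in the cell, and many have no known role. An antisense RNA is copied from the opposite strand of a coding gene, and a divergent RNA starts close to a coding gene's start and runs the other way, usually from a shared promoter rich in CG dinucleotides. DNA methylation in mammals falls mostly on the C of CG.

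The start windows of 4 genes are printed because these genes carry the results below: a member that fell and is among the most abundant (Oip5os1), one that rose inside a long coding gene (5530401A14Rik), and 2 that fell and start beside a coding gene (9330104G04Rik and Gm4285). Each runs from 250 bases before to 50 after the RefSeq start, on the gene's own strand in build GRCm38.p6, with every CG in capitals.

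Oip5os1, chr2:119594046-119594345, plus strand: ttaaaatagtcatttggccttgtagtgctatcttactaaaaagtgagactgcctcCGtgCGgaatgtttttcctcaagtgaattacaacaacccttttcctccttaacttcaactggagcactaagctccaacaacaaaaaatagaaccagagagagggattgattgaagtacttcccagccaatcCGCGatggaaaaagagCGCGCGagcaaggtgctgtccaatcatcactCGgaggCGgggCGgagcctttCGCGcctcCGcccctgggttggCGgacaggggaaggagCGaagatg

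5530401A14Rik, chr11:81860427-81860726, plus strand: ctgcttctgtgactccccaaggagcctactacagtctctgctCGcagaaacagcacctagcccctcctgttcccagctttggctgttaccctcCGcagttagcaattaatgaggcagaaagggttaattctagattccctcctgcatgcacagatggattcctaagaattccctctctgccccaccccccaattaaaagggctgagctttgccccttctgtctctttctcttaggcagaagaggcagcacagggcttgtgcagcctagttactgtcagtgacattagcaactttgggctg

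9330104G04Rik, chr7:16874837-16875136, minus strand: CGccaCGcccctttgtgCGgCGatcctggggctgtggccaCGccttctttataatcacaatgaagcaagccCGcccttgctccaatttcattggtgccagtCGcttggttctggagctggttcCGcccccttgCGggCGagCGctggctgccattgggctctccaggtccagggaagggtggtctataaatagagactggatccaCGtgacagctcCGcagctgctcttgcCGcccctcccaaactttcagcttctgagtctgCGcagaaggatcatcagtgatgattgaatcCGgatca

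Gm4285, chr14:75844915-75845214, minus strand: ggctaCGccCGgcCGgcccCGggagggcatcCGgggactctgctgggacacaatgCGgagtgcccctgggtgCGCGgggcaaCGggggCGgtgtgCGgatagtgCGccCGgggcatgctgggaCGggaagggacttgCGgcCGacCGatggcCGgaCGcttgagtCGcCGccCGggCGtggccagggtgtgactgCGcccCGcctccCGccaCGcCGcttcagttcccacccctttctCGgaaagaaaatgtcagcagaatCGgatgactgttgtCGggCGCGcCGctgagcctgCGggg

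The Oip5os1 window held 15 CG and that of 5530401A14Rik only 2. The 9330104G04Rik window held 16, and its start lies 431 bases from that of Dact3, a Wnt pathway antagonist. The Gm4285 window held 35 CG, more than or as many as 93.8% of the 32851 windows in the RefSeq table, and 209 of its bases are shared with the window of Tpt1, an abundant translationally controlled protein. At least 1 CG stood in 94.6% of all windows, whose median was 7.

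In the deposited annotation the position of a member is that of the reference gene nearest to its assembled transcripts. By these positions 1441 members (40.9%) overlapped their nearest coding gene on the opposite strand, 176 overlapped it on the same strand, and 234 were divergent, with starts within 2000 bases. On either strand, 869 lay wholly inside the span of the coding gene. Another 238 had a gap of up to 5000 bases and 1434 a wider one. The assembled transcript and the reference gene were not always the same thing: 798 of the 6850 transcripts (11.6%) were longer than the whole annotated gene, and these held 44.3% of the members' counts. Gm45207, for example, is annotated over 145 bases in Nav2, while the transcript counted under its name was 59274 bases long. The sources used here do not give whether counting used strand, so reads from an antisense member and from its coding host cannot be told apart. RefSeq lists 1893 members as lncRNA, 117 as pseudogenes and 70 as protein-coding, among them Nrros, whose symbol only happens to end in os. Another 1393 members were not listed there by symbol.

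Dnmt3l was detected in every Dnmt3l library, with 521 to 1179 counts, highest in DF1, and with 0 to 3 counts in controls. The mRNA totals were 27074837 to 32100277 counts in controls and 22144970 to 26842726 in Dnmt3l, and the lncRNA totals 1467252 to 1839502. Controls CM3, CF1 and CF2 held liver transcripts (5 liver markers summed to 59.1 to 71.7 CPM, counts scaled to 1e6 per library, there and to at most 0.575 in the other libraries). In the 5 Dnmt3l libraries other than DF1 the summed markers of microglia (5 of 6 genes called higher), endothelium (5 of 5), oligodendrocyte precursors (3 of 3) and astrocytes (4 of 5, with 1 lower), and the summed mitochondrial genes (9 of 13), exceeded all controls. DF1 lay within or above the control range for these lists and below the other Dnmt3l libraries: the microglial sum was 213 CPM there, between controls at 185 to 210 and the remaining Dnmt3l libraries at 333 to 407. Interneuron markers (4 of 6 lower, 2 higher) gave 554 to 633 for controls and 522 for DF1, above the 425 to 480 of the rest. Oligodendrocyte markers (4 of 5 higher) overlapped, with controls at 3298 to 6088, DF1 below them at 3199 and the remaining Dnmt3l libraries at 5998 to 10367. Excitatory neuron markers (1 of 7 higher, 2 lower) overlapped too, at 1719 to 2053 and, with DF1, 1816 to 2292. The part of these differences in the results below was not tested, and in tissue a smaller number of cells and less RNA per cell cannot be told apart.

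The members as a whole took more counts relative to mRNA in the Dnmt3l cortex. In controls they gave 2.45, 2.47 and 2.48 counts per 100 mRNA counts in males and 2.71, 2.40 and 2.43 in females. In Dnmt3l they gave 3.12, 2.94 and 2.80 in males and 2.72, 3.60 and 2.97 in females. Every Dnmt3l library lay above every control, although DF1 (2.72) exceeded CF1 (2.71) by little. The means were 3.03 ± 0.315 (SD, n = 6) and 2.49 ± 0.112 (SD, n = 6), a ratio of 1.22 (exact permutation test, two-sided, p = 0.00216). Within each sex the groups did not overlap either, with ratios of 1.20 in males and 1.23 in females, and 3 against 3 libraries cannot give a two-sided exact p below 0.1. Without CM3, CF1 and CF2 the ratio was 1.24 (exact permutation p = 0.0238). The members' share of lncRNA counts overlapped between genotypes, at 42.5% to 44.5% in controls and 43.1% to 44.0% in Dnmt3l (exact permutation p = 0.335). The whole lncRNA table gave a ratio of 1.23 relative to mRNA (exact permutation p = 0.00433), with DF1 below CF1.

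**Figure D1:**
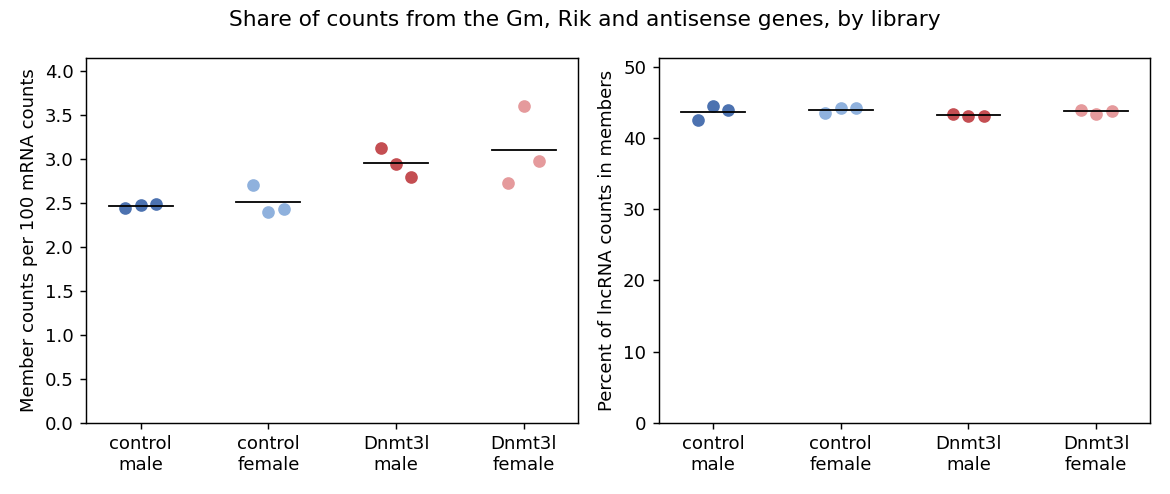
Each point is 1 library and the bar is the mean of 3; the left axis gives member counts per 100 mRNA counts and the right axis the percent of lncRNA counts that fell in members. The Dnmt3l libraries lie between 2.72 and 3.60 on the left, all above the controls (2.40 to 2.71), while the shares on the right overlap.

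This shift makes the number of called genes depend on what the counts are scaled to, so both scalings are given. Relative to the rest of the lncRNA table, 71 of 3523 members differed between genotypes averaged over sexes, 24 higher and 47 lower in Dnmt3l (edgeR quasi-likelihood test, Benjamini-Hochberg adjusted p below 0.05 over all features). Over all 8749 features 1.78% were called, 0.846% higher and 0.937% lower, against 2.02% of members (0.681% higher, 1.33% lower). Relative to mRNA, 366 members were higher and 32 lower, where the background was 10.3% higher and 0.629% lower, and the median member moved by 0.32 on the log2 scale (0.35 over all features). Log2 changes below are relative to the lncRNA table unless said otherwise, and 50 of the 71 calls were also made relative to mRNA. The count rests on few libraries: it was 154 (48 higher, 106 lower) without DF1, 38 to 46 without CM1, CM2, CM3, CF2 or DM2 singly, and 6 without CM3, CF1 and CF2 together, which leaves 3 controls. The median log2 change of the 24 higher members was 0.50 with all libraries and 0.51 without those 3 controls, and that of the 47 lower was -0.96 and -0.95. These members were chosen by calls that included those 3 controls, so their medians are a description and no test of the calls. Leaving out 1 library at a time kept 36 of the 71 calls in every case. Shares over all features are not given for the fits with libraries left out, so the counts from those fits have no background here.

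**Figure D2:**
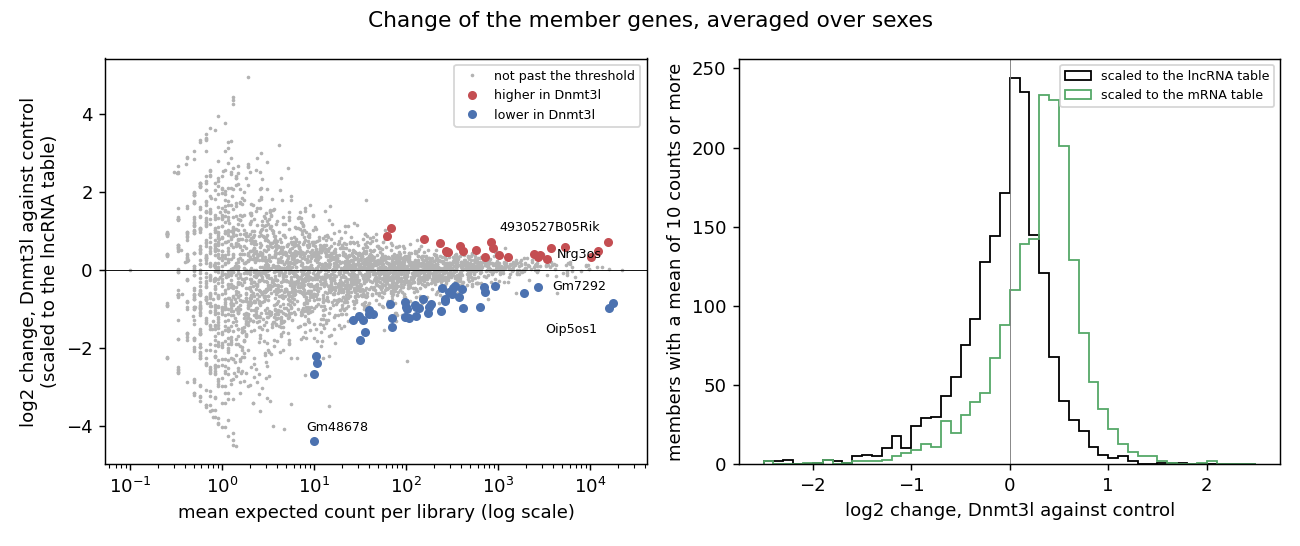
Left, each point is 1 member gene, with its mean expected count per library (log axis) against its log2 change scaled to the lncRNA table; right, the distribution of the log2 change of members with a mean of 10 counts or more under both scalings, with values past 2.5 drawn in the outermost bins. The 24 higher members in red lie between 0.27 and 1.07, the 47 lower ones in blue reach -4.40, and the distribution scaled to mRNA sits to the right of the other.

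The falls included some of the most abundant members. Oip5os1 (ENSMUSG00000085438, chr2:119594297-119607502, plus strand), known as Cyrano, is a conserved RNA that binds microRNA miR-7 and triggers its decay. In CPM of the lncRNA table it stood at 12323, 12323 and 12221 in control males and 11644, 12563 and 13929 in control females. In Dnmt3l males it stood at 5042, 5358 and 5246, and in Dnmt3l females at 12925, 5343 and 5251. Thus 5 Dnmt3l libraries lay below every control with little spread among them, while DF1 lay within the control range. The log2 change was -0.97 ± 0.17 (SE, adjusted p = 0.0111), and -0.65 relative to mRNA (adjusted p = 0.0120). Its mean count was 15907 per library, so counting error is small beside these differences.

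Gm7292 (chr6:117716342-117718868), the member with the most counts among those that fell, showed the same arrangement of libraries. Controls ran from 11929 to 14789 CPM, DF1 stood at 12952, and the other 5 Dnmt3l libraries at 5922 to 6962 (log2 change -0.84 ± 0.14 SE, adjusted p = 0.00891). 2900072N19Rik (chr2:92054989-92059369) fell from 474, 489, 500, 521, 540 and 456 CPM in the 6 controls to 202, 213 and 209 in Dnmt3l males and 434, 242 and 263 in Dnmt3l females. Here DF1 was again the highest Dnmt3l library but lay just below the lowest control (log2 change -0.96 ± 0.13 SE, adjusted p = 0.00137). Gm17753, beside the linker histone gene H1f0, fell by 0.99 on the log2 scale (adjusted p = 0.00104), with no overlap between genotypes; it and 2900072N19Rik were picked for description after their values were seen.

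The largest relative fall was at a rarely counted gene. Gm48678 (chr12:4595340-4655888, minus strand) lies opposite Itsn2, an endocytic scaffold gene. It had 13, 15, 24, 10, 16 and 36 counts in controls, and 0, 0, 1, 3, 1 and 1 in Dnmt3l, DF1 holding the 3 (log2 change -4.40 ± 0.65 SE, adjusted p = 0.00321). Itsn2 itself was at 111 to 128 CPM in controls and 117 to 136 in Dnmt3l, with a log2 change of 0.08 (adjusted p = 0.239). So this fall was seen in all 6 Dnmt3l libraries, on counts that are small in each.

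Of the other 9 members with the largest falls, Gm45437 (-2.40), Gm32568 (-2.20) and Gm39244 (-1.79) had means of 10.9, 10.6 and 31.9 counts, and their adjusted p values were 0.0484, 0.0348 and 0.0255. Gm26644, at a distance from the developmental transcription factor gene Pax2, changed by -1.59 (adjusted p = 0.0151). Gm16299, opposite the splicing factor gene Rbm20, stood at 81.1, 63.9, 52.6, 51.5, 68.9 and 48.5 CPM in controls and at 26.5, 20.5, 27.7, 8.48, 19.3 and 31.1 in Dnmt3l, with no overlap (log2 change -1.46 ± 0.26 SE, adjusted p = 0.0100). The others were Gm7008 (-1.28), Gm4211 (-1.28), Gm26805 (-1.24) and 2500004C02Rik (-1.24), the last opposite the chromatin regulator gene Asxl1 and reaching outside it. Gm26805 overlapped between genotypes, with DF1 at 56.7 CPM within the control range of 52.8 to 74.9. Gm45437, Gm32568, Gm39244, Gm4211 and Gm26805 lost their calls when single libraries were left out, with adjusted p values of up to 0.123, 0.109, 0.0868, 0.0970 and 0.123.

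The rises were mostly smaller, and several lay in the long neuronal genes Asic2 and Nav2. 4930527B05Rik (chr11:81385013-81402491, plus strand) lies opposite Asic2, an acid-sensing ion channel, and its transcript with the most counts was 114443 bases long. It stood at 6821, 7053 and 6772 CPM in control males and 7515, 6675 and 6724 in control females. In Dnmt3l it stood at 13140, 12913 and 12476 in males and 9759, 9914 and 10593 in females. All 6 Dnmt3l libraries, DF1 included, lay above all controls, with males above females (log2 change 0.72 ± 0.06 SE, adjusted p = 2.03e-05). The male change was 0.90 and the female change 0.53, and the test of that difference gave an adjusted p of 0.722.

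A further 2 members in Asic2 rose. 5530401A14Rik, whose start window is printed above and which was picked after its values were seen, stood at 5620 to 6627 CPM in controls and 8128 to 8918 in Dnmt3l, with DF1 the highest (log2 change 0.50 ± 0.06 SE, adjusted p = 0.000922). Gm11418 changed by 0.57 (adjusted p = 0.00222). Of the 6 members with a mean of 10 counts or more whose nearest coding gene is Asic2, these 3 rose and 0 fell, while the Asic2 gene in the mRNA table changed by 0.22 ± 0.07 (SE, adjusted p = 0.0139). Members that share a host may share reads and are not independent.

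Nav2, a gene for a neuronal navigator protein, had 4 such members and 2 rose. Gm45207 stood at 1679 to 1863 CPM in controls, 2968 to 3080 in Dnmt3l males and 2067 to 2449 in Dnmt3l females (log2 change 0.56 ± 0.06 SE, adjusted p = 0.000922). 9130015G15Rik rose by 0.42 (adjusted p = 0.00453) and Nav2 by 0.47 (adjusted p = 0.000361). Of the 58 coding genes with 3 or more such members, 52 had 0 called higher, 4 had 1, Nav2 had 2 and Asic2 had 3. Rises inside other coding genes included Gm25278 in Csmd1 (0.34), Gm22140 in Nrg1 (0.39), Gm43376 in Nbea (0.39) and Gm41609 in Dlgap1 (0.32), at adjusted p of 0.0100, 0.0175, 0.0224 and 0.0459; these 4 and 9130015G15Rik were named after their values were seen. In the mRNA table the hosts changed by 0.51 (Csmd1), 0.16 (Nrg1), 0.01 (Nbea) and -0.02 (Dlgap1). Leaving out single libraries ended the calls of Gm22140, Gm43376 and Gm41609, with adjusted p values of up to 0.0658, 0.0725 and 0.125.

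The remaining large rises lay elsewhere. Gm36823 (1.07, adjusted p = 0.0395) and Gm48691 (0.87, adjusted p = 0.0357) were the largest, on means of 69.1 and 61.7 counts, with no overlap between genotypes. Gm48691 also had a row in the mRNA table, where edgeR gave 0.69 and did not call it (adjusted p = 0.231). Gm3764, on chromosome 3, stood at 2316 to 2662 CPM in controls and 3359 to 3967 in Dnmt3l, with no overlap (0.54 in males and 0.63 in females; averaged adjusted p = 0.000922). Gm5820 (0.79), which RefSeq lists as protein-coding, and Gm11099 (0.70), inside Ccdc148, also rose. The calls of Gm36823, Gm48691, Gm5820 and Gm11099 were lost when single libraries were left out, with adjusted p values of up to 0.101, 0.0912, 0.0676 and 0.0920. Gm21980 (0.71) and Gm13307 (0.60) lie in a stretch of chromosome 4 with near-identical repeated genes, and the sources used here do not give how reads were split among the copies. Gm21980 was at 338 to 405 CPM in controls and 387 to 773 in Dnmt3l, so the genotypes overlapped, and so did those of Gm13307 (153 to 214 and 207 to 365).

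**Figure D3:**
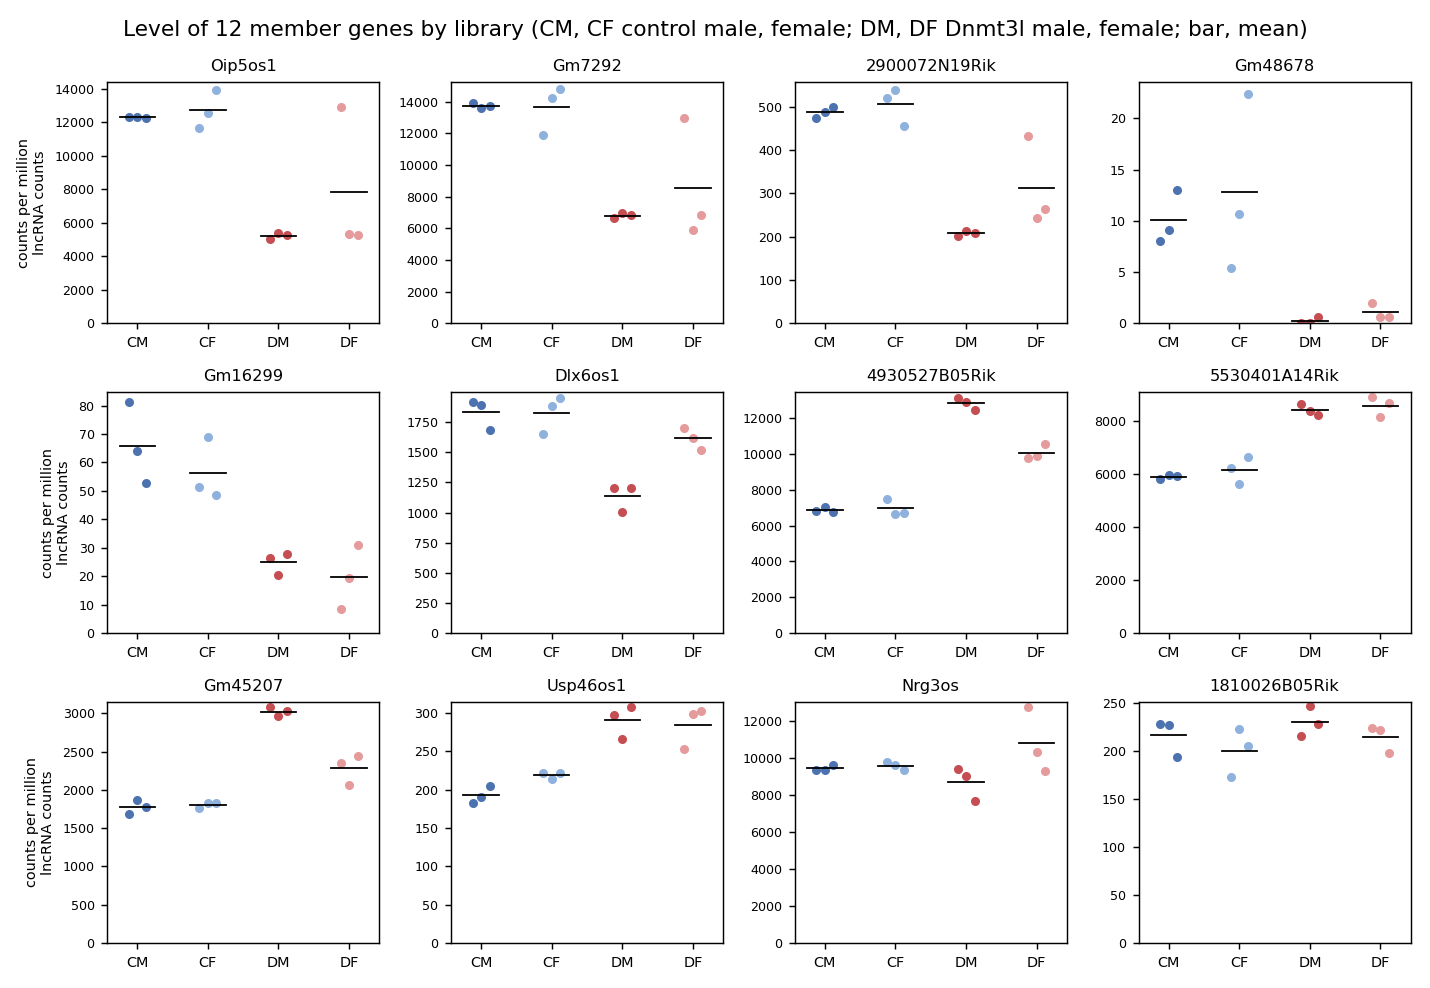
CPM in the lncRNA table of 12 member genes, 1 point per library, with the bar at the mean of 3 and each axis starting at 0. DF1 is the high point among Dnmt3l females for Oip5os1, Gm7292 and 2900072N19Rik, at 12925 CPM for Oip5os1, whereas for 4930527B05Rik and 5530401A14Rik all 6 Dnmt3l libraries lie above all controls.

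DF1 stood apart from the other Dnmt3l libraries at some of the called members. It lay within the control range for 15 of the 47 lower members and for 2 of the 24 higher ones. All 6 Dnmt3l libraries were outside the control range for 24 of 47 and for 18 of 24. Since the calls were made with DF1 included, these counts are a description.

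Over all members, whatever the test said, 38 had all 6 Dnmt3l libraries above all controls and 45 had all 6 below them, 1.08% and 1.28%, beside 0.914% and 0.994% of all features. Relative to mRNA the counts were 168 above and 17 below (4.77% and 0.483%), beside 4.34% and 0.331% of all features. On both scales the members' shares were close to those of the whole lncRNA table.

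The antisense genes, taken by symbol, with a mean of 10 counts or more numbered 74, the protein-coding Nrros among them. Relative to the lncRNA table, Usp46os1 rose, Oip5os1, Dlx6os1 and Far1os fell, and the other 70 did not pass the test. Of these, 60 had log2 changes between -0.5 and 0.5. The called shares were 1.35% higher and 4.05% lower, on 1 and 3 genes, beside 1.58% and 1.68% over all features with as many counts. The median of the 74 was 0.06, beside 0.03 over those features. Relative to mRNA, 22 of the 74 were called higher and 1 lower, beside 878 and 45 of the 4630 features with as many counts. The medians on that scale were 0.40 and 0.37. Changes of the 70 ran from -1.17 ± 0.50 (SE) at Prox1os to 1.80 ± 1.09 at Zfhx2os, where 5 libraries, among them 2 of 3 control males, held no count at all.

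Usp46os1 (chr5:74014215-74029680, plus strand) lies inside Usp46, which encodes a deubiquitinating enzyme. It stood at 183, 190, 205, 222, 213 and 222 CPM in controls and at 298, 266, 308, 252, 299 and 302 in Dnmt3l, with no overlap (log2 change 0.48 ± 0.09 SE, adjusted p = 0.0125). The coding gene went the other way. Usp46 stood at 110 to 115 CPM in controls and at 63.9, 65.6, 61.6, 94.4, 60.3 and 63.2 in Dnmt3l (log2 change -0.72 ± 0.10 SE, adjusted p = 0.000268). DF1 was the lowest Dnmt3l library for the antisense gene and the highest for the coding gene.

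Dlx6os1, also called Evf2, is an interneuron lncRNA that regulates the Dlx5 and Dlx6 genes of inhibitory neuron development. It stood at 1921, 1896, 1688, 1651, 1881 and 1952 CPM in controls, 1208, 1001 and 1203 in Dnmt3l males and 1706, 1619 and 1521 in Dnmt3l females. The males lay below all controls and the females partly overlapped them (log2 change -0.43 ± 0.08 SE, adjusted p = 0.0100; males -0.69, females -0.18; adjusted p of the difference 0.722). Relative to mRNA the change was -0.09 (adjusted p = 0.610). Dlx6 itself changed by -0.82 (adjusted p = 0.0332), and the summed interneuron markers were lower in all Dnmt3l libraries than in controls.

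Far1os, opposite the fatty acyl-CoA reductase gene Far1, changed by -0.40 relative to the lncRNA table (adjusted p = 0.0370, and up to 0.106 with single libraries left out) and by -0.05 relative to mRNA (adjusted p = 0.844). Nrg3os, opposite the ErbB ligand gene Nrg3, was the antisense gene with the most counts (16190 per library) and overlapped between genotypes, at 9329 to 9776 CPM in controls and 7664 to 12770 CPM in Dnmt3l (0.03 ± 0.08 SE, adjusted p = 0.918). Cdr1os, opposite Cdr1, gave 0.03 ± 0.08 (adjusted p = 0.914). Relative to mRNA both were called higher, Nrg3os by 0.37 (adjusted p = 0.0363) and Cdr1os by 0.37 (adjusted p = 0.0349). Emx2os, opposite the forebrain transcription factor gene Emx2, gave 0.41 ± 0.14 (adjusted p = 0.168), and 0.78 relative to mRNA (adjusted p = 0.0106). Nrros, a protein-coding gene of microglia, gave 0.14 (adjusted p = 0.341) and 0.48 relative to mRNA (adjusted p = 0.00847), beside the higher microglial markers. By edgeR on the mRNA table, its row there gave 0.30 and was not called (adjusted p = 0.111).

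Other members with a known role were not called. C130071C03Rik, a conserved neural lncRNA that also gives rise to a miR-9 precursor, stood at 95.5 to 113 CPM in controls and 62.2 to 92.7 in Dnmt3l, with no overlap between the genotypes. Its log2 change was -0.39 ± 0.13 (SE, adjusted p = 0.162), and it was -0.05 relative to mRNA. 1810026B05Rik, known as Chaserr, restrains the neighbouring chromatin remodeller gene Chd2. It changed by 0.10 ± 0.10 (SE, adjusted p = 0.692), and by 0.44 relative to mRNA (adjusted p = 0.0237), while Chd2 changed by 0.14 (adjusted p = 0.0548). Six3os1, opposite the homeobox gene Six3, ranged from 28.4 to 99.2 CPM in controls and from 10.4 to 77.5 in Dnmt3l (adjusted p = 0.510).

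Ranked by FPKM, which divides by length, the 8 highest members were Gm11597, Gm27910, Gm43008, Gm2005, Gm7292, Gm37813, Gm39317 and Gm14149. Most were short: the transcript of Gm11597 was 212 bases and that of Gm37813 was 245, so that their effective lengths in the deposited FPKM came to 11.3 and 23.9 bases and lifted the value of Gm11597 to 51810 FPKM on 954 counts per library. Among these 8 only Gm7292 was called relative to the lncRNA table. Gm11597 stood at 350 to 571 CPM in controls and 381 to 870 in Dnmt3l (0.51 ± 0.14 SE, adjusted p = 0.0833), and the other 6 changed by 0.05 to 0.57. Gm2005 and Gm27910 lie on chromosome X among near-identical copies, where reads may be split between copies.

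The position classes had medians near 0 but for the divergent one. Among members with a mean of 10 counts or more, the median log2 change was -0.20 for the 130 divergent genes, 0.03 for the 833 antisense overlapping, 0.07 for the 116 sense overlapping, -0.03 for the 114 with a gap up to 5000 bases and 0.02 for the 599 farther away. Relative to mRNA the order was the same at its ends, with 0.15 for the divergent and 0.40 for the sense overlapping genes. Antisense members wholly inside the coding gene had a median of 0.10 (443 genes, 12 higher, 10 lower), and those reaching outside it -0.13 (390 genes, 2 higher, 15 lower). Where the antisense host spanned over 500000 bases, 9 of 116 members rose (7.76%) and 2 fell (1.72%). Coding genes of that span include Asic2 and Nav2, with 3 and 2 higher members in any position. Members that share a host are not independent. Where it spanned up to 50000 bases, 2 of 292 rose (0.685%) and 13 fell (4.45%). Over all features with a mean of 10 counts or more, 73 of 4630 rose (1.58%) and 78 fell (1.68%). Members in the longest hosts also had more counts, with a median of 431 against 55.002 in the shortest. By count level alone, 11 of 139 members with a mean of 1000 counts or more rose (7.91%) and 4 fell, while 0 of 496 with 10 to 30 counts rose and 4 fell. The part of count level in the difference by host span was not tested.

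The start windows were counted in the same way. Of the members, 1541 had a RefSeq window matching in symbol, chromosome and strand. The median window held 27 CG for divergent members, 9.5 for antisense overlapping ones and 4 for those over 5000 bases away. The 28 members called lower with a window had a median of 10.5 CG and the 7 called higher a median of 7. Among members with a mean of 10 counts or more, the median log2 change was 0.05 with 0 to 4 CG (281 genes), 0.02 with 5 to 9 (187), -0.12 with 10 to 19 (127) and -0.18 with 20 or more (174). In the same order 2, 5, 0 and 0 of these were called higher and 6, 7, 8 and 7 lower, beside 1.58% higher and 1.68% lower over all features with a mean of 10 counts or more. DNA methylation was not measured in the data used here, and CG content goes with position class.

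**Figure D4:**
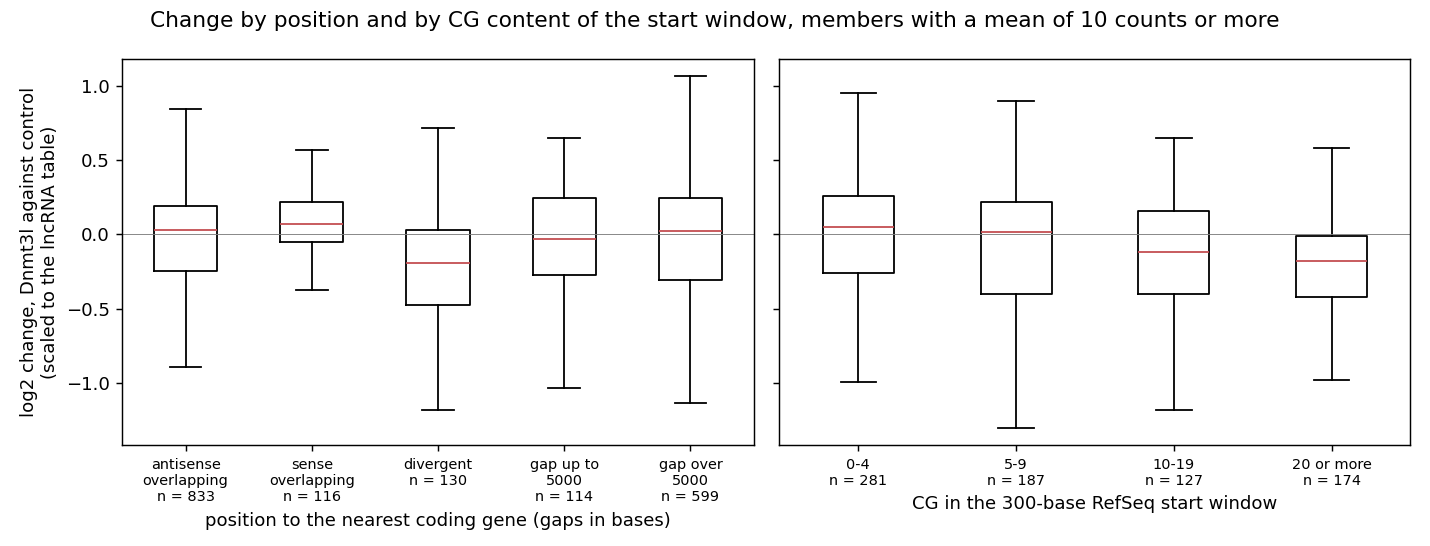
Boxes give the quartiles and median (red) of the log2 change of members with a mean of 10 counts or more, with whiskers to the last value within 1.5 times the box length and points beyond left out; left by position to the nearest coding gene, right by the number of CG in the RefSeq start window. The divergent genes (median -0.20) and those with 20 or more CG (median -0.18) sit lowest.

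The windows of 9330104G04Rik and Gm4285 were printed because these divergent members fell, out of 130 divergent members with a mean of 10 counts or more. 9330104G04Rik stood at 70.6, 99.2, 77.6, 73.0, 67.5 and 79.6 CPM in controls and at 30.1, 40.5, 31.1, 63.2, 42.5 and 38.4 in Dnmt3l, with DF1 just below the controls (log2 change -0.95 ± 0.17 SE, adjusted p = 0.0110). Dact3 rose, from 130 to 169 CPM in controls to 166 to 239 in Dnmt3l (0.41 ± 0.08 SE, adjusted p = 0.000943). Gm4285 stood at 84.7 to 116 CPM in controls, with DF1 among them at 97.8 and the remaining Dnmt3l libraries at 40.8 to 49.8 (-0.96 ± 0.18 SE, adjusted p = 0.0148), while Tpt1 did not pass the test (0.00 ± 0.09 SE, adjusted p = 0.972). Another 2 divergent members fell, 9030407P20Rik beside the Hedgehog pathway gene Mosmo (-1.01, with Mosmo at -0.28) and 2610507I01Rik beside the mitochondrial ribosomal gene Mrpl55 (-0.70, with Mrpl55 at -0.64); the latter was -0.37 relative to mRNA (adjusted p = 0.0527). These 4, described after their values were seen, were all the divergent members called lower with a mean of 10 counts or more, and Gm21980 was the only one called higher.

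Each member was also set against its nearest coding gene within the same library. The log2 ratio of the pair, both as CPM of the mRNA total, could be tested for 1611 members (limma, adjusted p below 0.05 over 2228 features). It was higher in Dnmt3l for 471 and lower for 66, which is 29.2% and 4.10%, beside 29.6% and 3.86% over all features (33.4% called in all), with a median change of 0.32. With each table scaled by itself, 152 were higher and 163 lower (9.44% and 10.1%, beside 10.4% and 9.47%, 19.8% in all). Across the 1611 genes the change of a member and that of its neighbour were weakly related (Spearman rho 0.10, across genes, which are not independent and of which 477 share a neighbour with another member). Of all genes in the mRNA table, 25.2% were called higher and 26.4% lower. Both genes of a pair were called relative to mRNA in 219 pairs, of which 120 rose together, 11 fell together, 81 had the member higher and the coding gene lower, and 7 the reverse. On that scale 358 members with a mean of 10 counts or more were called higher and 28 lower. Pairs with a higher member were thus bound to be the more frequent. No share over all features is given for these pairs, so their counts cannot show a link within pairs.

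**Figure D5:**
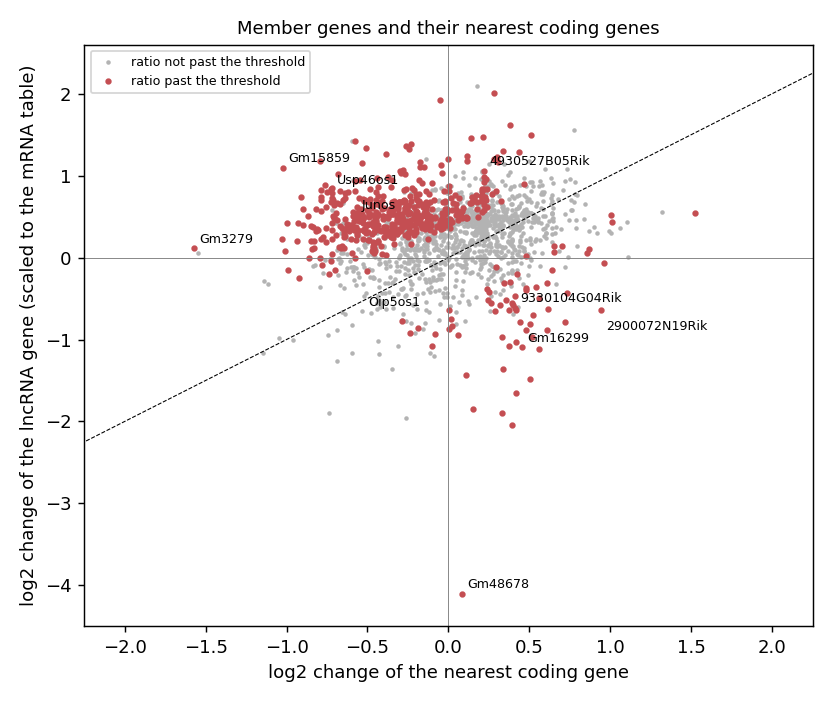
Each point is 1 of 1608 members, with the log2 change of its nearest coding gene on the x axis and its own, scaled to the mRNA table, on the y axis; 3 pairs lie outside the axes, and red marks pairs whose ratio passed the test. More points lie above than below the dashed line of equal change (471 called higher, 66 lower), and Gm48678 lies at -4.10.

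The pairs with the largest differences involved members with means of 10 to 80.2 counts. Gm48678 to Itsn2 (-2.68), Gm45437 to Rasip1 (-1.998) and Gm42500 to Tmem132d (-1.95) were lower. Gm15859 to the heme oxygenase gene Hmox2 (2.09), Gm26676 to Kcng2 (1.88), E130304I02Rik to Zfp507 (1.82) and Gm12798 to Ak4 (1.81) were higher. Of the members in these pairs only Gm48678 and Gm45437 were themselves called relative to the lncRNA table. Gm47715 to Arg1 (2.28) was higher while Arg1, a urea cycle gene of liver, changed by -4.70; CM3, CF1 and CF2 held liver transcripts. With each table scaled by itself all 8 ratios kept their direction and their call.

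In 3 pairs picked after their values were seen, the ratio changed with a called change of the coding gene. Neurod6, a transcription factor of excitatory neurons, stood at 64.2 to 92.1 CPM in controls, with DF1 among them at 76.3 and the remaining Dnmt3l libraries at 10.1 to 37.8, while Gm3279 beside it stood at 0.943 to 1.78 and 0.898 to 2.12 on the same scale (ratio 1.73 ± 0.26 SE, adjusted p = 0.00243). Jun, an immediate early transcription factor, stood at 47.6 to 60.7 in controls and 31.2 to 42.3 in Dnmt3l, and Junos at 25.4 to 30.05 and 31.7 to 47.6 (ratio 1.08 ± 0.14 SE, adjusted p = 0.00180). Creb3l1, a membrane-bound transcription factor, stood at 1.67 to 2.69 in controls and 2.64 to 6.28 in Dnmt3l, against the fall of 2900072N19Rik (ratio -1.54 ± 0.25 SE, adjusted p = 0.00343). The Usp46 pair gave a ratio of 1.56 ± 0.20 (SE, adjusted p = 0.00180). All 4 ratios were also called with each table scaled by itself.

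By sex, 45 members were called in males (18 higher, 27 lower; background 1.04%, with 0.583% higher and 0.457% lower) and 2 in females, 4930527B05Rik and Gm3764, both higher (background 0.0229%). Relative to mRNA there were 121 in males (3.17% of all features were called) and 0 in females by edgeR, where 476 members had an unadjusted p below 0.05 and DESeq2, scaled to the lncRNA table, called 21. The difference between the sexes was itself tested: no member was called by edgeR (background 0.0114%), 201 had an unadjusted p below 0.05, and DESeq2 called 1. Without 1 male library the male count fell to 4 (CM2 or DM2), 5 (CM1), 6 (CM3), 9 (DM1) or 20 (DM3). The female comparison included DF1, and without it 36 members were called in females, 8 higher and 28 lower. Shares over all features are not given for DESeq2 or for the fits with libraries left out. Those counts therefore say nothing particular to the members.

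Finally, 256 members also had a row in the mRNA table. Of the 36 with a mean of 10 counts or more that were tested there, 15 were called in the mRNA table, where 51.5% of all genes were called. Relative to mRNA, 27 of the 36 changed in the same direction in both tables (Spearman rho 0.33, across genes). Members as a whole moved up on that scale (median 0.36 for those with a mean of 10 counts or more). The number of shared directions therefore cannot show whether the 2 tables agree.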

How the data were processed

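RNA was sequenced from 12 cortex libraries, 3 in each of 4 groups of genotype and sex, with a kit that marks the second strand by dUTP, per the labels' protocols. Per the submitters' processing notes, the tools included HISAT2 2.0.1 and HTSeq 0.6.1 (with cutadapt 1.9.1 and bedtools 2.17.0) on the build GRCm38. The authors deposited an expected count (an estimate that need not be whole) per assembled transcript, in separate lncRNA and mRNA tables; the sources used here do not give how they were estimated. The deposited FPKM values divide by an effective length and by the total of their own table, as checked on the values, so levels in the 2 tables share no scale.

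Transcripts at 0.1 FPKM or more in at least 3 libraries were summed per gene ID and rounded to whole counts. Genotype effects, averaged over sexes, within each sex and their difference, were fitted on all 12 libraries by edgeR's quasi-likelihood test (edgeR 4.0.16, R 4.3.3) with TMM scaling of the lncRNA table and Benjamini-Hochberg adjustment over 8749 features, at a threshold of 0.05. CPM of members were scaled by these factors, and CPM of coding genes by those of the mRNA table. The log2 ratio of each member to its nearest coding gene (smallest gap between spans, prior count 2) was tested with limma 3.58.1. The member had a mean of 10 counts or more, and the coding gene 0.5 FPKM or more in at least 3 libraries. The ratio drew on the spread of all tested pairs. Sums per library were compared by an exact permutation test. The code was tested on simulated data with known changes. Among features with a mean of 10 counts or more, the averaged edgeR test recovered 20% of 1.5-fold and 48% of 2-fold changes. It recovered 88% of 4-fold changes, and 12 of its 137 calls were false. Alternatives were DESeq2 1.42.0, the library sizes of the mRNA table, no FPKM minimum, a mean of 10 counts or more, limma on log2(FPKM + 0.1), the replicate number as a block, and each library left out; the closing part gives their effect. Start windows came from RefSeq (GRCm38.p6), in which 1541 members matched.

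The members and lists were chosen with earlier results of these data known. The named genes are the 10 largest rises and 10 largest falls among called members with a mean of 10 counts or more, the 8 highest in FPKM, antisense genes with a mean of 10 counts or more, the 8 largest called ratio differences and a list with known roles, of which 1700016P03Rik, A330023F24Rik, Gm42418 and Gm26917 are not among the members. Other genes are said in the text to have been picked after their values were seen. Rows of the mRNA table with no gene ID (0.533% to 0.601% of counts) were left out.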

Additional observations from a re-analysis of the deposited data

How the results depend on the processing

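With DESeq2 175 members were called averaged over sexes, 121 in males, 21 in females and 1 for the difference between the sexes. With the library sizes of the mRNA table the counts were 398, 121 and 0, and with no FPKM minimum 170, 114, 42 and 6. With limma on log2(FPKM + 0.1) they were 56, 23, 1 and 1, and with a mean of 10 counts or more 104, 58 and 5. Leaving out 1 library at a time gave 38 to 154 averaged, 4 to 67 in males, 0 to 36 in females, 0 to 1 for the difference and 378 to 716 for the ratio to the nearest coding gene, the highest of each being without DF1. Without CM3, CF1 and CF2 together 6 were called. Of the 71 calls, 71 were also made with DESeq2, 50 with the library sizes of the mRNA table, 38 with limma on FPKM and 5 without those 3 controls. Of the 37 calls named in the text or its lists, 37, 33, 22 and 4 were, and Dlx6os1 and Gm11099 were among those missed by limma. The ratio gave 315 calls with each table scaled by itself and 505 to 524 with a minimum of 30 counts, neighbours by start sites or a prior count of 0.5. The cause of these differences was not tested. Shares over all features are given above only for the library sizes of the mRNA table and for the ratio with each table scaled by itself. For the other alternatives the counts describe the setting and cannot be set against a background.

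Samples with the same replicate number did not deviate together across features (correlations of -0.09 to 0.08). Such correlations cannot exclude a pairing that touches only some genes, so whether the numbers pair the samples was not settled. With the replicate block 79 members were called averaged over sexes, 42 in males, 4 in females and 468 by the ratio.

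Changes near 0 turned direction. Cdr1os was -0.028 with limma on FPKM and -0.016 to 0.054 with single libraries left out, below 0 without CM1 (-0.0083) and without DM1. Nrg3os was -0.015 with limma on FPKM and -0.042 to 0.075 with single libraries left out, below 0 without DF1 and without DM1 (-0.0026). Gm14149 was -0.018 with limma on FPKM. Scaled to the mRNA table, edgeR called all 3 higher: Cdr1os at 0.37, Nrg3os at 0.37 and Gm14149 at 0.39 (adjusted p = 0.0349, 0.0363 and 0.0223). Gm3279 was 0.11 scaled to the mRNA table and 0.026 with limma on FPKM.

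The median member had 10.6 counts per library, and 1792 of 3523 members had a mean of 10 or more; 1 of the 71 calls was below that mean, and recovery of changes among rarer members was not measured. Counts were assigned to assembled transcripts, and 11.6% of these were longer than the annotated gene whose name they carry.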
